A study of Homo sapiens with 12 samples.

Results

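The regions described here are accessible sites that lay between genes but near one. They were chosen by position alone: a called peak summit on chromosomes 1 to 22, in an interval of at most 10 kb, outside every gene, more than 1000 bp from any gene end and at most 50 kb from the nearest end of a protein-coding gene. The rule was met by 17036 summits in 14485 intervals. They made up 16.1% (exact binomial 95% interval 15.9 to 16.4) of the 105599 autosomal summits in intervals of that length, and 9.06% of the 188019 summits in the list.

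Accessibility was read by ATAC-seq: a transposase cuts and tags open DNA, and fragments pile up where chromatin is accessible. HT1080, an established human fibrosarcoma line, was grown for 48 h in gels of rat tail collagen. The gels held 0.3 mg/mL in the low group, 1 mg/mL in the medium group and 1.7 mg/mL in the high group, with 4 libraries each and 12 in all, to ask how confinement changes chromatin. Every group carried GM6001, an inhibitor of matrix metalloproteinases, at 20 µM, so no group shows cells without it, and all libraries came from this 1 line after collagenase digestion, freezing and thawing. The values come from 1 peak list without a column for any library, read here as pooled, so they have no replicates, the depth per library is unknown, and no comparison of collagen concentrations or test over samples was possible. As a check of the cell type, markers with a summit within 1000 bp of a gene end were counted. These were 6 of 7 mesenchymal markers (enrichment 6.64 to 15.1, all but THY1). They were 1 of 7 epithelial markers (EPCAM, 2.11) and 2 of 7 blood markers (SPI1 and CD3E, 8.44 to 14.5). Of all 19126 autosomal coding genes 66.3% had such a summit, so the mesenchymal count alone does not identify the cell type.

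Promoters are the stretches around gene starts, and those of active genes are open. Enhancers are regulatory elements that lie farther away, bind transcription factors and act on a gene's promoter over a distance, often by looping. Many are open only in some cell types, and they need not act on the nearest gene. An accessible site between genes may be an enhancer, an insulator bound by CTCF, a start site that the gene table lacks, or a repeat. Nearest genes are given below as landmarks of position, not as targets.

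A genome sequence was not used here, so bases at the summits themselves are not shown. Some of the member intervals reached a gene start, however: 36 promoter windows (250 bases before a start to 50 after it; RefSeq, GRCh38.p14) lay wholly inside 34 member intervals, and 30 of the 36 belonged to coding genes. The 3 with the highest pileup at the member summit were those at EGR1, SMAD6 and USP3. Their 250 bases before the start are printed because they join a distal summit and another one near the start in 1 open interval. For EGR1, a transcription factor gene induced within minutes by growth factors, these bases span chr5:138465229-138465478 on the plus strand. For SMAD6, an inhibitor of BMP signalling, they span chr15:66701986-66702235 on the plus strand. For USP3, a deubiquitinase that acts on histones, they span chr15:63504343-63504592 on the plus strand. Capitals mark CArG boxes (the binding sequence of serum response factor) in EGR1 and GGGCGG or its complement (bound by SP and KLF factors) in SMAD6 and USP3.
EGR1: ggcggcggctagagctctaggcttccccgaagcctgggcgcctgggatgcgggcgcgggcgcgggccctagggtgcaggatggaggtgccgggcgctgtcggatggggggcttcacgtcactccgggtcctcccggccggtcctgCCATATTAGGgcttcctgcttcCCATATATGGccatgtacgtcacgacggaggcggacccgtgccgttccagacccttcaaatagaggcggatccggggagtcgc
SMAD6: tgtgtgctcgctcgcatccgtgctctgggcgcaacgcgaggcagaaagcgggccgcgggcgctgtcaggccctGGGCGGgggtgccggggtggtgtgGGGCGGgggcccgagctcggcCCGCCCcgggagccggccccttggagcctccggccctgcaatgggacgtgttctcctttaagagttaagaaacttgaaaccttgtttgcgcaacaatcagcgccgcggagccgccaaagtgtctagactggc
USP3: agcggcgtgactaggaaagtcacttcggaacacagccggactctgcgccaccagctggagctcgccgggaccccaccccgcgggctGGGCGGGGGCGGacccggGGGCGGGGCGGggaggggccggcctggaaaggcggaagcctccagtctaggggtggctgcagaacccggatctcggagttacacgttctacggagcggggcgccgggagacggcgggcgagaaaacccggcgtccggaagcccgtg
The member summit at EGR1 lay 1263 bp upstream of the start (enrichment 5.51, pileup 1673 fragments), and the interval's other summit, 398 bp from the start, had 8.44 and 2614. At SMAD6 the member summit, 1052 bp upstream, was the stronger (8.98 and 1407 fragments, against 6.33 and 1004 at 62 bp from the start). At USP3 the member summit, 1210 bp upstream, was the weaker (5.93 and 1133 fragments, against 10.6 and 2010 at 147 bp). The 2 CArG boxes of EGR1 began 105 and 83 bases before the start. CArG boxes occurred in 1.16% of the 34943 promoter windows of this length. At least 1 GGGCGG occurred in 42.5%, so its presence is a common feature. SMAD6 had 3 and USP3 had 4 (the last 2 of which share a base), and how often windows hold so many is not given here.

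A further pair of promoters is shown because several member intervals surrounded them, with the genes picked after their values were seen. For EMP1, a membrane protein of the PMP22 family, the 250 bases before the start span chr12:13196476-13196725 on the plus strand. They carry in capitals 2 matches to TGANTCA, the AP-1 motif. For DUSP1, a phosphatase that switches off MAP kinases, they span chr5:172771196-172771445 on the minus strand. They carry in capitals TGACGTCA, the cyclic AMP response element.
EMP1: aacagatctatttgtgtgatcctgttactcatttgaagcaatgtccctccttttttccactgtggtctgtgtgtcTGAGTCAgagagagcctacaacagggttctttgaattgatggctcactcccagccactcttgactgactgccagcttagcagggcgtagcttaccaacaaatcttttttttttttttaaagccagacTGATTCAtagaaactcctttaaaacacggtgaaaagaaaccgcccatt
DUSP1: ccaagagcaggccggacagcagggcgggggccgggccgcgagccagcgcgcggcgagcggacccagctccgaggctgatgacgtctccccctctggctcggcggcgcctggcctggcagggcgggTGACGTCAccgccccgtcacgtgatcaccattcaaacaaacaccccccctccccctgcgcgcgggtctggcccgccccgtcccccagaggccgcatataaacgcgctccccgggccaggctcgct
The EMP1 start had a summit 149 bp away (enrichment 13.2, pileup 2150), and its AP-1 matches began 175 and 48 bases before the start. The DUSP1 start had a summit 30 bp away (9.06 and 1255), and its response element began 125 bases before the start. AP-1 matches occurred in 6.59% of promoter windows and the response element in 1.63%. Searches covered both strands for 9 motifs: TGANTCA (AP-1), GGAATG (TEAD), TGTGGT (RUNX), CCGGAA (ETS), GGGCGG (SP/KLF), CCAAT (NF-Y), CAGCTG (E-box), CArG by name, and TGACGTCA, which was added after the values were seen. Matches to other motifs of the search are not in capitals. These were 1 ETS and 1 E-box in USP3, 1 RUNX and 1 SP/KLF in EMP1, and 4 SP/KLF in DUSP1. A match describes letters only.

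The intergenic summits were weaker than those at gene ends and about as strong as those inside coding genes. Enrichment is the fold of fragments over a local background, and pileup is the number of fragments that overlap the summit. Median enrichment was 3.75 (order-statistic 95% interval 3.68 to 3.80, which like all intervals here covers counting error only and treats summits as separate), with quartiles of 2.16 and 6.54. It was 6.79 (6.64 to 6.96) for the 21240 summits within 1000 bp of a gene end and 3.73 (3.69 to 3.76) for the 40536 inside a coding gene. Median pileup was 101 fragments (99 to 102), against 317 (306 to 328) at gene ends and 101 (100 to 103) inside coding genes. On each of the 22 autosomes the member median lay below that of gene ends, in enrichment and in pileup. Against coding gene bodies the order varied by chromosome, with the member median enrichment lower on 14 and higher on 8.

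**Figure D1:**
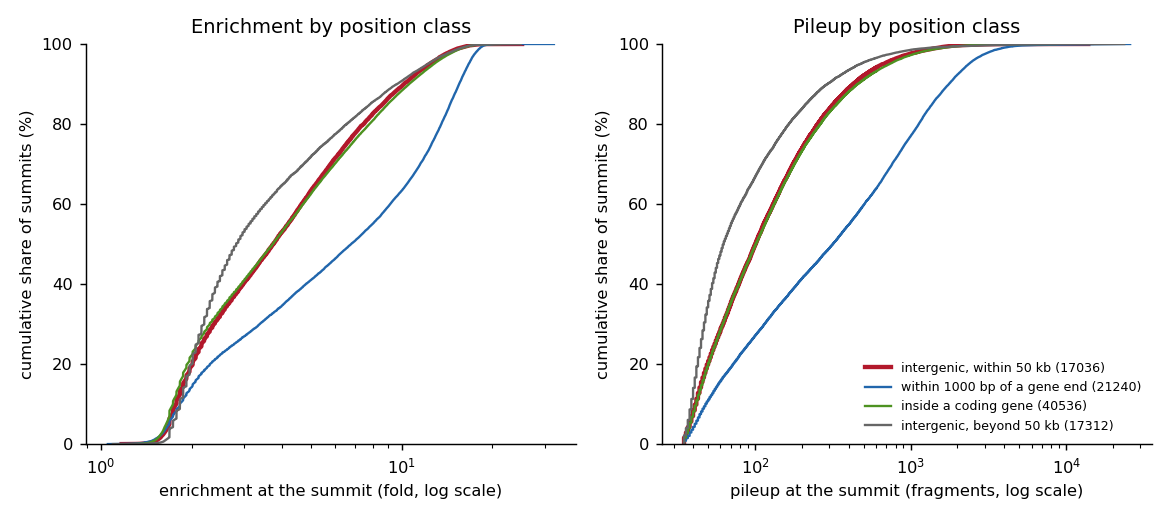
Cumulative share of summits (vertical axis, %) by enrichment (left, fold, log scale) and by pileup (right, fragments, log scale) for 4 position classes. The curve of the 17036 intergenic summits runs along that of summits inside coding genes (median pileup 101 in both) and to the left of gene ends (317).

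The 17312 intergenic summits beyond 50 kb were lower again as deposited, with a median enrichment of 2.81 (2.77 to 2.86) and a median pileup of 63 (62 to 64). The members stood higher on 16 chromosomes and lower on 5 by enrichment, and higher on 19 and lower on 3 by pileup. The size of this difference depended on how summits were counted. It was 0.93 fold units over all summits, 0.38 with each interval counted once, 0.20 in intervals of at most 2000 bp, and 0.05 among summits with a −log10 q of at least 10. The difference in median pileup kept its sign in those 3 settings, at 23, 17 and 30 fragments, against 38 over all summits.

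Strong sites were present between genes but made up a smaller share than at gene ends. An enrichment of at least 10 was reached by 1806 members (10.6%, 10.1 to 11.1), where 16.2% of all 105599 autosomal summits in short intervals reached it. The share was 36.7% (36.0 to 37.3) at gene ends, 11.7% inside coding genes, 12.2% inside noncoding genes only and 9.24% beyond 50 kb. With each interval counted once, the order of the last class turned: the share was 12.3% (11.8 to 12.9) for members and 13.6% (13.0 to 14.3) beyond 50 kb. A pileup of at least 1000 fragments was reached by 405 members (2.38%) in 382 intervals, against 23.1% of summits at gene ends. At the weak end, 3321 members (19.5%) had an enrichment under 2, and 1434 (8.42%) rested on 40 fragments or fewer. The lowest pileup called was 35 fragments, in 272 members, which over the genome-wide background of 20.3 fragments is an enrichment of 1.69. Weaker sites were not detectable at this depth.

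The background around the summits also followed position. It was raised above the genome-wide value in 68.8% of members, in 85.9% of summits at gene ends, in 69.2% inside coding genes and in 32.8% beyond 50 kb. The peak caller divides by this background, so the same pileup gives a lower enrichment where the background is higher. Whether a summit's own fragments raise its background was not tested, so a raised background is not a separate measure of open surroundings. Among members with a raised background the median pileup was 144 and the median enrichment 4.41, and among the 5316 at the genome-wide background they were 62 and 2.95. Across the 17036 members enrichment and pileup had a Spearman correlation of 0.89, a description over summits that share libraries and depth. Part of this correlation is built in, because pileup was solved from the enrichment and the 5316 share 1 background.

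Member intervals were denser near genes. The median member lay 12836 bp (quartiles 5755 and 25865 bp) from the nearest coding gene end. Density was counted per Mb of territory, the autosomal sequence that meets the same position rule, which came to 390 Mb and held 37.2 member intervals per Mb. It was 49.6 per Mb at 1 to 2 kb from a coding gene end, 42.4 at 5 to 10 kb, 38.1 at 10 to 20 kb and 29.8 at 35 to 50 kb. The density at 1 to 5 kb (43.9 per Mb) was 1.40 times that at 20 to 50 kb (31.4 per Mb), with a counting interval of 1.34 to 1.46.

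Enrichment was lower near genes, where pileup was slightly higher. The median enrichment was 3.19 (2.99 to 3.38) at 1 to 2 kb and 4.10 (3.89 to 4.31) at 35 to 50 kb, and the share of summits with an enrichment of at least 10 was 7.37% (5.93 to 9.03) and 13.0% (11.6 to 14.5). Median pileup was 110 (101 to 118) at 1 to 2 kb and 109 (103 to 113) at 2 to 5 kb, against 97.5 (94 to 101) at 10 to 20 kb, 98 (93 to 102) at 20 to 35 kb and 101 (96 to 106) at 35 to 50 kb. The median background fell by bin from 30.4 to 22.3 fragments, and the share of summits with a raised background from 83.7% to 60.3%. Over single summits the relation was slight, with a Spearman correlation of distance of 0.08 with enrichment and −0.04 with pileup.

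**Figure D2:**
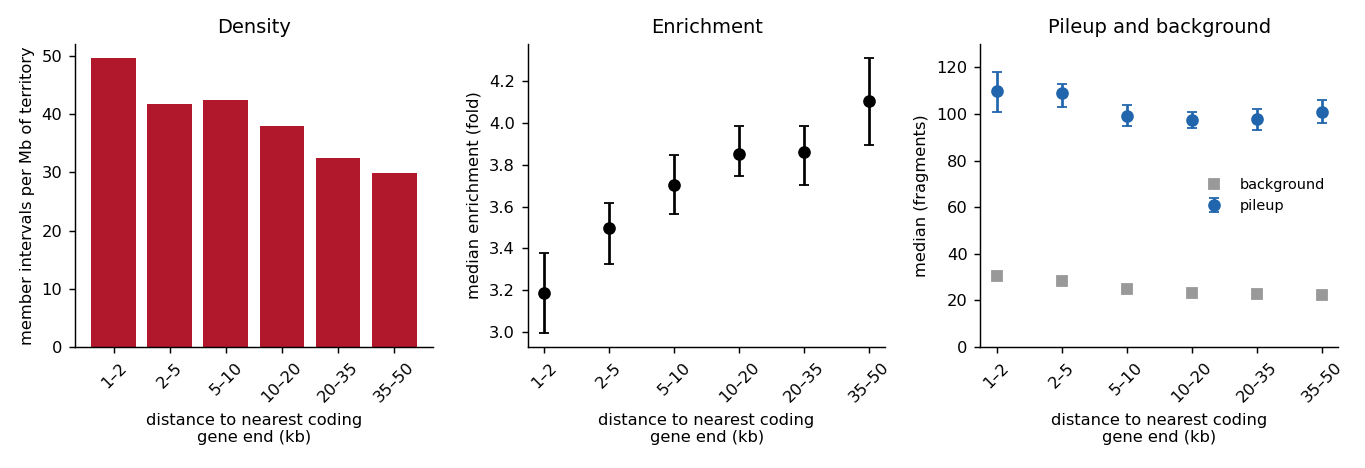
Member intervals per Mb of territory (left), median enrichment (middle, fold; the axis does not start at 0) and median pileup and background (right, fragments) by distance to the nearest coding gene end in kb; bars on points are order-statistic 95% intervals. Density fell from 49.6 to 29.8 per Mb while median enrichment went from 3.19 to 4.10 and background from 30.4 to 22.3.

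The limits of the rule cut through a continuum. The member nearest the inner limit lay 1001 bp from HEXA (enrichment 11.6, pileup 419), and the summit just excluded lay 1000 bp from SMAD7 (8.46 and 1021). The member nearest the outer limit lay 50000 bp from PLAAT1 (3.10 and 65), and the summit just excluded 50006 bp from MTCL1 (2.77 and 58).

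Chromosomes differed in how many such intervals they held for their territory. Chromosome 22 had 64.9 per Mb, chromosome 17 had 49.8 and chromosome 19 had 48.1, while chromosomes 6 and 4 had 27.4 and 25.9. Chromosome 7 combined a density of 43.2 per Mb with the lowest medians of its members, 2.71 in enrichment and 74 in pileup. Gene ends (5.41) and summits inside coding genes (2.88) were low there too, though not the lowest. Gene ends had 4.25 on chromosome 21, and summits inside coding genes 2.66 on chromosome 19. Summits beyond 50 kb had 2.58 on chromosome 7, above the 2.25 on chromosomes 18 and 19. By the medians of members chromosome 21 came next, at 3.10 and 80.

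**Figure D3:**
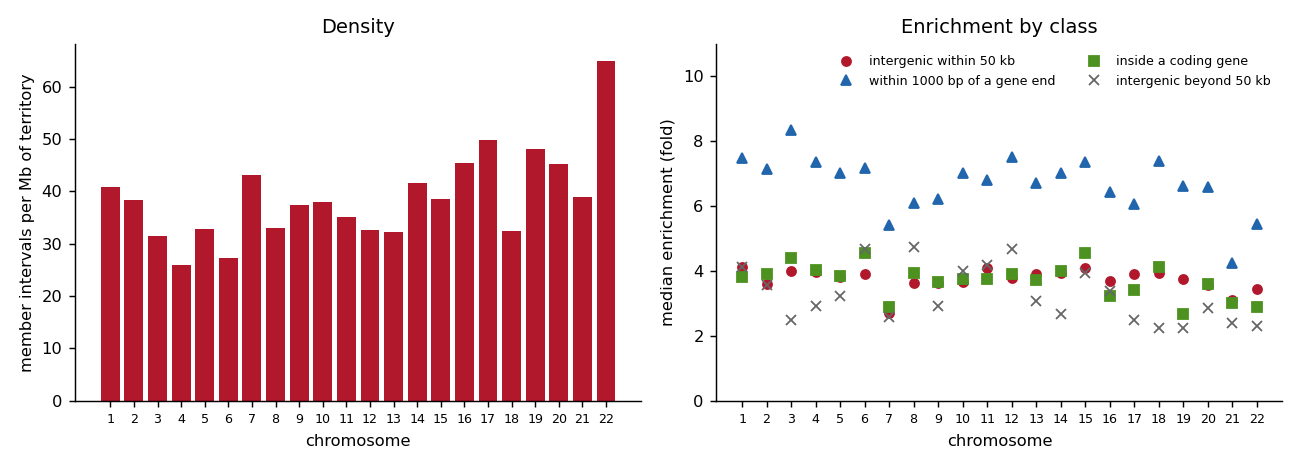
Member intervals per Mb of territory on each autosome (left) and median enrichment (right, fold) of members and 3 other position classes. Density ranges from 25.9 on chromosome 4 to 64.9 on chromosome 22, and the gene end medians lie above the member medians on all 22 chromosomes.

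Most of the intervals were short and simple. Median width was 483 bp (quartiles 353 and 674), and 99.1% were at most 2000 bp long. A single member summit was present in 12618 intervals. The other 1867 held 4418 summits, up to 15. At their strongest summit they had a median enrichment of 2.95 and pileup of 81, against 4.42 and 116 for intervals with 1. The 1483 intervals with 2 summits had 3.00 and 79, and the 329 with 3 or 4 had 2.76 and 81. The 55 with 5 or more had 3.75 and 135, so their median pileup was above that of intervals with 1. Intervals with the most summits lay near LOC124905368 (15 summits), CCT8L2 (14) and, with 13 each, POTEF, POTEM, KCNJ18, LOC101929627 and LOC124908048. The POTE genes are a family of near-identical copies, where reads can be placed at more than 1 copy. How the authors treated such reads is not given in the sources used here.

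The nearest gene end of any kind belonged to a coding gene for 9482 members (55.7%), to a long noncoding RNA for 4239 (24.9%) and to a pseudogene for 3015 (17.7%). Their median enrichments were 3.71, 3.66 and 3.94, so these 3 kinds of neighbour differed little. The 46 members nearest a tRNA gene stood lower (2.58, pileup 64.5), and the 33 nearest a small nuclear RNA gene higher (6.86, pileup 391). These 33 came from 23 intervals. Within 100 kb of a chromosome tip, 67 members had a median enrichment of 5.44 and pileup of 193, and 20.9% of them reached an enrichment of 10. Within 1 Mb of an interval over 100 kb, 134 members had a median of 2.76.

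Among the 10 member intervals of highest enrichment, 3 of the first 4 lay at a chromosome tip. The highest, chr12:133264937-133265305, reached 25.1 (pileup 2248), 29.2 kb upstream of ANHX, a homeobox gene. Its own end is the last position that the list or the gene table gives for the chromosome. That position was taken as the tip, so the distance to the true chromosome end was not measured. The others at tips, also in the first 4, lay 36.2 kb beyond TUBB8, a tubulin gene, on chromosome 10 (21.3, pileup 2119) and 15.5 kb upstream of PARD6G, a cell polarity gene, on chromosome 18 (20.6, pileup 1993). The PARD6G interval likewise ends at the position taken as the tip. The second, chr2:32912312-32916685, was not at a tip. It held 5 summits 30.5 kb upstream of LTBP1, which binds latent TGF-β in the matrix, and its highest summit had an enrichment of 22.4 from 798 fragments over a background of 34.6.

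The next sites had an enrichment of 18.4 to 19.4 and pileups of 1383 to 1812. They lay near MIF, a cytokine gene (18.8 kb, 19.4), STAM2, an endosomal sorting gene (25.0 kb, 18.6), IPO7, a nuclear import receptor (20.2 kb, 18.5), LOC105376722 (15.7 kb, 18.5), TMEM161B (44.1 kb, 18.4) and LPIN3, a phosphatidate phosphatase (11.1 kb, 18.4). Each of these 6 was a single summit in an interval of 588 to 1050 bp.

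By pileup the order was different. The highest, 13871 fragments, lay 11.1 kb from the first position of chromosome 5, with assembly gaps counted (nearest coding gene LOC107987432, enrichment 17.6). Whether reads at the sites of highest enrichment or pileup could also be placed elsewhere was not tested. The second, chr17:43239083-43246722, reached 7581 fragments over a background of 1070, so that its enrichment was only 7.08. It lay 12.9 kb upstream of CCDC200 and 1516 bp from a small nuclear RNA gene. The next 3 lay 6.10 kb upstream of FLYWCH1 (5141 fragments, 13.8), 2.56 kb beyond VAMP2, a vesicle fusion gene (3843, 12.1), and 35.7 kb upstream of MEDAG, which promotes fat cell differentiation (3664, 13.5). After them came chr14:75258764-75259668, 19.7 kb upstream of FOS (3367, 16.3).

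The intervals were spread unevenly over genes. Of 19126 autosomal coding genes, 7553 (39.5%) were the nearest coding gene of at least 1 member interval, 1738 (9.09%) of at least 3 and 403 (2.11%) of at least 5. Genes with more intervals had more territory, with a median of 3.04 kb for genes with none, 19.8 kb for genes with 1 and 55.3 kb for those with 5 or more, so counts per gene are given below beside the territory or per Mb of it. No territory at all was left for 3545 genes, which share their flanks with other genes. A summit within 1000 bp of an end was present in 66.5% of genes with no member interval, 64.9% with 1 and 72.0% with 5 or more, against 66.3% of all.

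Among the 10 genes with most intervals, some had strong sites and others mostly weak ones. Several genes, SNAI1 among them, tied at 9 for the last places, which went to those with the highest enrichment. EMP1 was nearest to 13, of which 6 lay upstream and 7 beyond its end. Their strongest summits ranged from 2.32 to 12.8 in enrichment and from 50 to 549 fragments in pileup. The strongest lay 36.0 kb beyond the end (12.8, pileup 500) and 23.0 kb upstream (pileup 531). The enrichment of 12.8 was close to the start's own 13.2, but at far fewer fragments than its 2150.

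NRP1, a co-receptor for semaphorins and VEGF, was nearest to 11. A summit 31.4 kb above its upper end reached 14.3 (pileup 1223) and one 43.2 kb below its lower end 12.9 (pileup 1690), while the 2 nearest its lower end had 1.61 and 1.77. COL6A3, a chain of collagen VI, was nearest to 10. One, 18.7 kb upstream, had a pileup of 2316 and an enrichment of 11.1, more than the strongest summit within 1000 bp of its own ends (4.69). The other 9 had enrichments of 2.08 to 7.40.

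CDC42EP3, an effector of the CDC42 GTPase that shapes actin, was nearest to 9, with enrichments of 3.80 to 11.3, and 4 of these exceeded 9. NFKBIA, the inhibitor of NF-κB, was nearest to 9 with 2.91 to 11.0. CFAP54, a cilium gene, was nearest to 9 with 2.56 to 12.5.

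Other genes had mostly weak sites. MAP4K4, a kinase upstream of JNK, was nearest to 10 with no enrichment above 3.61 and a median pileup of 43, though a summit at its own end reached 13.1. Of its 10, 9 lay beyond its end within 37.0 kb of each other. LOC124904970 on chromosome 20 was nearest to 10 with a highest enrichment of 3.35, and LOC124902048 on chromosome 8 to 11 with a highest of 5.57. For most intervals of both, the nearest gene end of any kind was that of a pseudogene, such as RNA5SP528 or REXO1L2P. Whether reads there could be placed at more than 1 position was not tested. KCNJ18, a potassium channel gene with near-identical copies, had the most, 14, all within 1 Mb of an interval over 100 kb, with a median enrichment of 2.61 and a highest of 11.5.

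**Figure D4:**
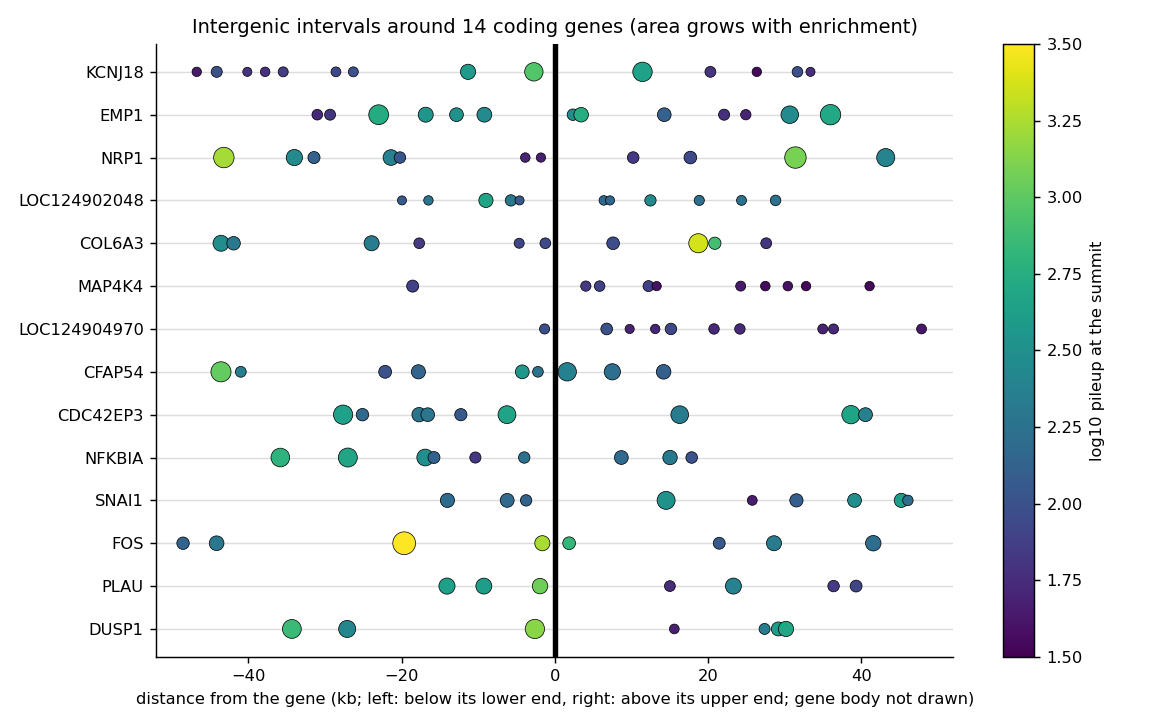
Member intervals around 14 coding genes, by distance in kb below the gene's lower end (left) or above its upper end (right); area grows with enrichment and colour gives log10 pileup. The first 10 genes have the most intervals and the last 4 were added; EMP1 shows strong sites on both sides (up to 12.8), MAP4K4 only weak ones (up to 3.61), and the yellow point is the site of 3367 fragments near FOS.

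Packed runs of intervals were mostly runs of weak ones. In windows of 50 kb the 2 densest held 10 intervals each. They lay beside LOC101929627 and LOC124902048 on chromosome 8 (median enrichment 1.88) and beside OR2Z1 and ZNF558 on chromosome 19 (1.89). Windows with 9 lay beside MAP4K4 (1.78), LARP4B (2.22), DDX51, GALNT9 and NOC4L (1.83), KCNJ18 (2.04) and LOC124904970 (2.16). A run of 8 beside CSNK1A1 and IL17B on chromosome 5 had a median of 4.28 and a pileup of 142. In general the nearest other member interval was 11007 bp away at the median, and 23.4% had one within 5 kb.

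AP-1, a dimer of FOS and JUN family proteins that is induced by growth factors and stress, binds many enhancers in mesenchymal cells. Of the 10 genes listed here for it, with ATF3, BATF and BATF3 among them, 7 were nearest to at least 1 member interval and 4 to at least 3. Of all coding genes 39.5% and 9.09% were. The listed genes had 101 intervals per Mb of their territory, against 37.2 over all genes. FOS had 8, which ranged from 112 to 3367 fragments and from 3.51 to 16.3 in enrichment. Its 2 highest by pileup lay upstream, at 19.7 kb (3367) and 1.63 kb (1725, enrichment 6.46), and the third 1.86 kb beyond the end (658, 4.21).

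The other listed genes had no site as high as the 2 highest of FOS by pileup. ATF3 had 6, of which 5 lay upstream, and the strongest was 6.37 kb upstream (11.1, pileup 437). FOSL2 had 5 with no enrichment above 3.59, and BATF3 had 3 with up to 10.0. JUN had 1 (3.81) and FOSL1 had 1 (2.86), whose pileup of 900 lay over a background of 314. JUNB, JUND and FOSB had none, in territories of 0.754 to 9.19 kb. With so little territory few intervals could be counted for these genes.

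For matrix and invasion genes, 16 of 25 autosomal ones had at least 1 interval and 8 at least 3, against 39.5% and 9.09% of all coding genes, at 80.9 per Mb against 37.2. PLAU, the urokinase protease, had 7, with 3 upstream at enrichments of 6.84 to 7.52 and the nearest, 1.93 kb away, at 1147 fragments. SPARC, a collagen-binding matrix protein, had 4, with 13.6 at 12.4 kb and 11.9 at 20.2 kb upstream. MMP14, a membrane-bound collagenase, had 2 beyond its end, and the one at 3.71 kb reached 2601 fragments (11.7). MMP1 and LOX had no territory and no interval, while FN1 and COL1A2 had no interval in 34.0 and 43.5 kb of territory.

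The mechanosensitive list holds targets of the YAP/TEAD and MRTF/SRF factors, which answer to stretch and actin, together with factors and regulators themselves, such as YAP1, TEAD1, SRF and LATS2. Of its genes, 10 of 16 had at least 1 interval and 3 at least 3, beside 39.5% and 9.09% of all genes, at 53.2 per Mb beside 37.2. TPM1, a tropomyosin, had 6 and its strongest lay 17.6 kb beyond the end (11.7, pileup 576). CCN1, a secreted matricellular protein, had 4 on 1 side, and the one 23.4 kb away reached 2555 fragments (13.6) while its neighbour at 28.1 kb had 908 (4.88). AMOTL2, which binds YAP, had 4 with enrichments of 1.83 to 6.46. CCN2 had no territory.

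Mesenchymal transcription factor genes most often had an interval, 10 of 12 against 39.5% of all genes, but they also had the most territory, a median of 51.5 kb against 10.6 kb for all genes. Per Mb their density was 38.9, close to the 37.2 over all genes. SNAI1, a repressor of epithelial genes, had 9 with enrichments of 2.00 to 9.72. TWIST2 had 5, of which the one 38.1 kb beyond its end reached 12.3 (pileup 1242). SNAI2 had 3 with up to 4.86, and TWIST1 had none in 55.5 kb.

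Heterochromatin genes, which the study's title points to, had an interval in 10 of 19 autosomal members (52.6%, against 39.5% of all coding genes), at 62.3 per Mb against 37.2. At least 3 intervals were found for 2 of the 19, CBX5 and EED, and for 9.09% of all coding genes. CBX5, which encodes heterochromatin protein 1 alpha, had 5, all beyond its end, with enrichments of 2.88 to 12.7 and pileups of 209 to 581. EED, a subunit of the Polycomb complex that methylates histone H3, had 3. Nuclear envelope genes had one in 9 of 13 (69.2%, against 39.5%) but none had 3, as 9.09% of all genes did, at 44.5 per Mb. LBR, the lamin B receptor, had 1 with an enrichment of 13.0 (pileup 694), SYNE2, which links the envelope to actin, had 1 (10.9, pileup 327), and TMPO, a lamin-binding protein, had 1 (8.94, pileup 190). SUN2, which also links the envelope to the cytoskeleton, had 2 (up to 3.55).

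The densities of the 2 comparison lists lay on either side of the 37.2 intervals per Mb of all coding genes. Ribosomal protein genes had an interval in 6 of 16 (37.5%, against 39.5% of all coding genes), with a median territory of 2.69 kb. Their density of 97.4 per Mb lay between those of the matrix and invasion list (80.9) and the AP-1 list (101). Of these genes, RPL11 had 6 (up to 5.06) and RPL3 had 5 (up to 4.39 and 1450 fragments). Genes of other lineages had an interval in 5 of 20 (25%, against 39.5%), at 22.7 per Mb. EPCAM, an epithelial adhesion gene of this list, had 3, of which the one 8.23 kb away reached 15.9 (pileup 1097), although its own ends reached only 2.11. The lists hold 10 to 25 autosomal genes, so 1 or 2 genes move these densities.

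**Figure D5:**
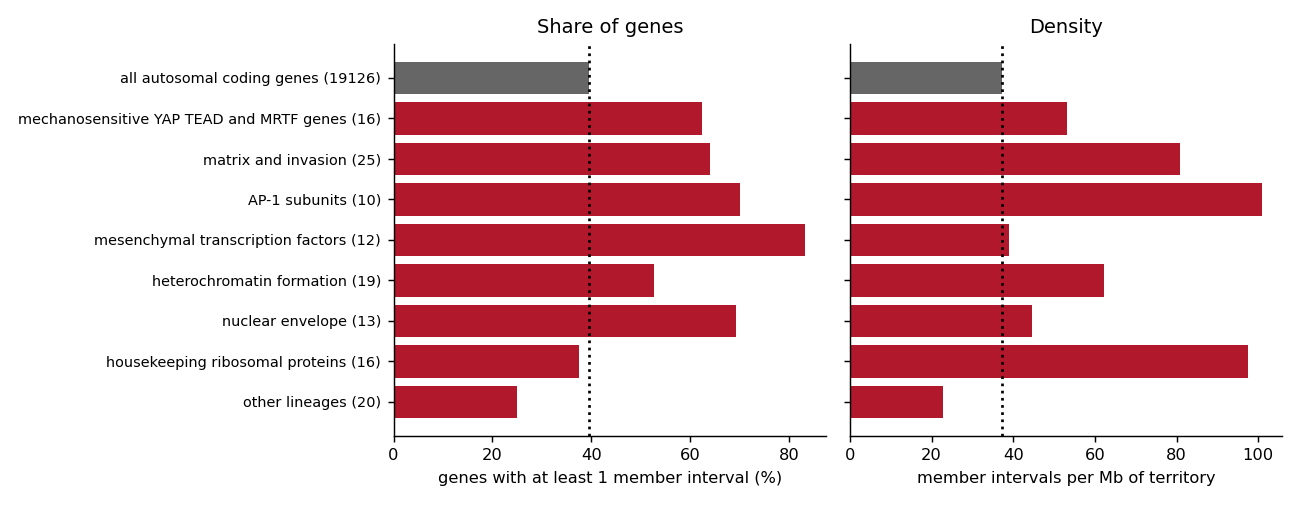
Share of autosomal genes with at least 1 member interval (left, %) and member intervals per Mb of territory (right) for all coding genes (grey, dotted line) and 8 gene lists (red; number of genes in brackets). Mesenchymal transcription factors have a high share (10 of 12) at a density of 38.9 per Mb, and ribosomal protein genes a share of 6 of 16 at 97.4.

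Signalling genes outside the lists were picked after their values were seen, so they do not show how common such sites are. EGR1, among them, had only 3 intervals, with enrichments up to 5.51. IER5, an early response gene, had 7, with 14.5 (pileup 1364) at 12.5 kb and 12.6 (902) at 19.8 kb beyond its end. DUSP5 and DUSP1, phosphatases that turn off MAP kinases, had 7 each. The strongest of DUSP5 lay 24.8 kb from its end (12.1, pileup 1209), and that of DUSP1 2.61 kb beyond its end (11.4, pileup 1386), higher than the summit at the DUSP1 start printed above (9.06 and 1255). EGFR, the epidermal growth factor receptor, had 7, of which 1 stood apart: 33.4 kb upstream an enrichment of 15.9 (pileup 671), against 1.66 to 3.75 at the other 6. ANXA1, which binds membrane lipids and dampens inflammation, had 8, up to 11.9 at 19.4 kb upstream, and TSKU, a secreted proteoglycan, had 7, up to 10.8.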

How the data were processed

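ATAC-seq of HT1080 cells in 3 collagen concentrations was analysed from 1 deposited peak list without library columns. The submitters' processing notes name fastp 0.20.0, Bowtie2 2.4.3, SAMtools, deepTools 3.5.0, MACS2 2.2.7.1 and hg38, without roles or order. The authors' enrichment (a fold ratio) and −log10 p and q values per summit were used as deposited, and the deposited score was not used. Pileup and local background were solved from the enrichment, taken as (pileup + 1)/(background + 1), and −log10 p, taken as a Poisson tail. No label states this model; pileups came out whole, within 0.05, in 99.96% of lines and in 100% of members, and the recovery was tested on 5000 simulated cases. A background above 20.3 fragments (tolerance 0.2%) is called raised.

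Genes came from the RefSeq table for GRCh38.p14. Density used all autosomal positions that meet the rule, assembly gaps included. Intervals are exact binomial or order-statistic 95% intervals and cover counting error only; fragments are not separate molecules. Named were the 10 member intervals of highest enrichment, the 5 of highest pileup, the 10 genes nearest to most intervals, up to 4 genes per list, the members at each limit and the densest windows; other genes, such as JUN, FOSL1, MMP14, CCN2 and TWIST1, were picked after their values were seen. A gene that this rule names is not reported here. Strand was known for 78.2% of members' genes, under the 80% needed, so the planned share upstream of starts is void; the planned motif search at summits was not run. The members and lists were chosen with earlier results of these data known. Python 3.11.15, numpy 2.4.6, pandas 2.3.3 and scipy 1.17.1 were used.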

Additional observations from a re-analysis of the deposited data

How the results depend on the processing

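Counting each interval once gave medians of 4.22 in enrichment and 111 in pileup. With a −log10 q of at least 10 there were 11291 members, with medians of 5.40 and 160, and the difference in median enrichment from summits inside coding genes turned from 0.02 to −0.18, where the cause was not tested. Limits of 25 kb and of more than 2500 bp from any gene end gave median enrichments of 3.68 and 3.83. Bins up to 25 kb, with 10 to 25 kb as the far bin, gave a density ratio of 1.19. With only coding genes excluding a summit, there were 24603 members, the median pileup was 103 and the density ratio 1.33. Without chromosome 7, an alternative chosen after seeing the data, the medians were 3.82 and 103. The other 25 recomputed values of the 5 main results stayed within their counting intervals or, for counts, within 1.5 times. Of the differences between class medians, 13 recomputed values moved and 10 did not, beside the 1 that turned. No paired analysis was possible because the pooled list carries no value per library. For the same reason leaving out replicates and the planned count tests between concentrations were not run. The planned share of members upstream of a start and the motif search, with their alternatives, were not run either. Sites under 35 fragments were not called, and the intervals treat summits as independent, although those of 1 interval share fragments.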
